A study of Mus musculus with 5 samples.

Results

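The genes described here are 10 regulators of the first gap phase of the cell cycle (G1): the D-type cyclin genes Ccnd1, Ccnd2 and Ccnd3, the E-type cyclin genes Ccne1 and Ccne2, the kinase genes Cdk2, Cdk4 and Cdk6, and the inhibitor genes Cdkn1b and Cdkn2b. They were chosen by name, with earlier results of these data known. A gene was included if an array feature carried its symbol and no other. Where several features qualified, the brightest over the arrays stood for the gene. All 10 were measured, of 19938 genes in all. RNA came from 2 wild-type and 3 Mkl2-/- cultures of undifferentiated C57BL/6 mouse embryonic stem cells, described by the series as independent. Both genotypes were grown in serum and leukaemia inhibitory factor on gelatin and feeder fibroblasts, and were parted from the feeders by a short attachment step before lysis. Mkl2 (current symbol Mrtfb) encodes a myocardin-related coactivator of serum response factor (SRF), and the series asks what its loss does to TGF-beta signalling. The sources used here do not tell whether the cultures of a genotype stem from 1 or several lines, so p-values measure the spread between these cultures only.

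In the textbook cycle, D-type cyclins are made in response to growth signals and pair with CDK4 or CDK6 to start phosphorylation of the retinoblastoma protein. That phosphorylation frees E2F factors, which switch on the E-type cyclins, and cyclin E with CDK2 then drives entry into S phase. The protein of Cdkn1b (p27) holds cyclin E-CDK2 in check, and the protein of Cdkn2b (p15), a gene known to be induced by TGF-beta, binds CDK4 and CDK6. Mouse embryonic stem cells are known for a short G1 phase, low amounts of D-type cyclins and high cyclin E-CDK2 activity.

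Values are log2 expression as deposited, 1 value per array, and a difference is Mkl2-/- minus wild type. A gene was called when its Benjamini-Hochberg adjusted p over all 19938 genes, from limma, was under 0.05. Over all genes 9.27% were called, 6.28% as lower and 2.99% as higher in Mkl2-/- (1252 and 596 genes). With a further quantile normalization of these values the split was 1751 lower and 1483 higher. The median difference of all genes was 0.02. Mkl2 has 3 features, with differences of -0.53, -0.83 and -0.98, and the brightest, used here, read 9.80 and 9.75 in wild type against 9.32, 9.32 and 9.09 in Mkl2-/-, a difference of -0.53 ± 0.089 (SE; limma adjusted p = 0.048). The mean of the 3 features differed by -0.78 (limma adjusted p = 0.0152). The call on Mkl2 held in 6 of 14 alternatives, and of the 5 fits with 1 array left out only in that without Mkl2-/- replicate 3 (limma adjusted p = 0.0381, against 0.126 to 0.189 in the others). The sources used here do not place the features relative to the deletion, so they are no check of the knockout. The stem cell markers Pou5f1 and Sox2 were far above the background level of 7.30, below which 95% of 1027 olfactory receptor genes had their mean. No member had an array below that level. Of all genes, 6374 had a mean below that level. A limma fit of only the 13564 genes above it called 17.4%, 1537 as lower and 822 as higher. Precision is limited by there being 5 arrays.

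All 3 D-type cyclin genes and Cdk6 were lower in Mkl2-/- cells, while the genes of cyclin E, CDK2 and CDK4 were not called. Of the 10 genes, 4 fell and none rose by limma (0 rises also at an unadjusted p under 0.05), against 6.28% of all genes called as lower. All 10 lay above background, where 17.4% were called in either direction in a fit of such genes alone. The 10 genes were chosen with earlier results of these data known, so these shares are no test of the set. Ccnd2 fell 1.91-fold, Cdk6 1.49-fold, Ccnd1 1.25-fold and Ccnd3 1.18-fold. The other 6 genes differed by between -0.06 and 0.15. The arrays of both genotypes did not overlap in 6 of the 10 genes, against 33.6% of all genes. The median difference of the 10 genes was -0.03. In bulk samples like these, fewer cells of a type and less RNA per cell cannot be told apart.

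**Figure D1:**
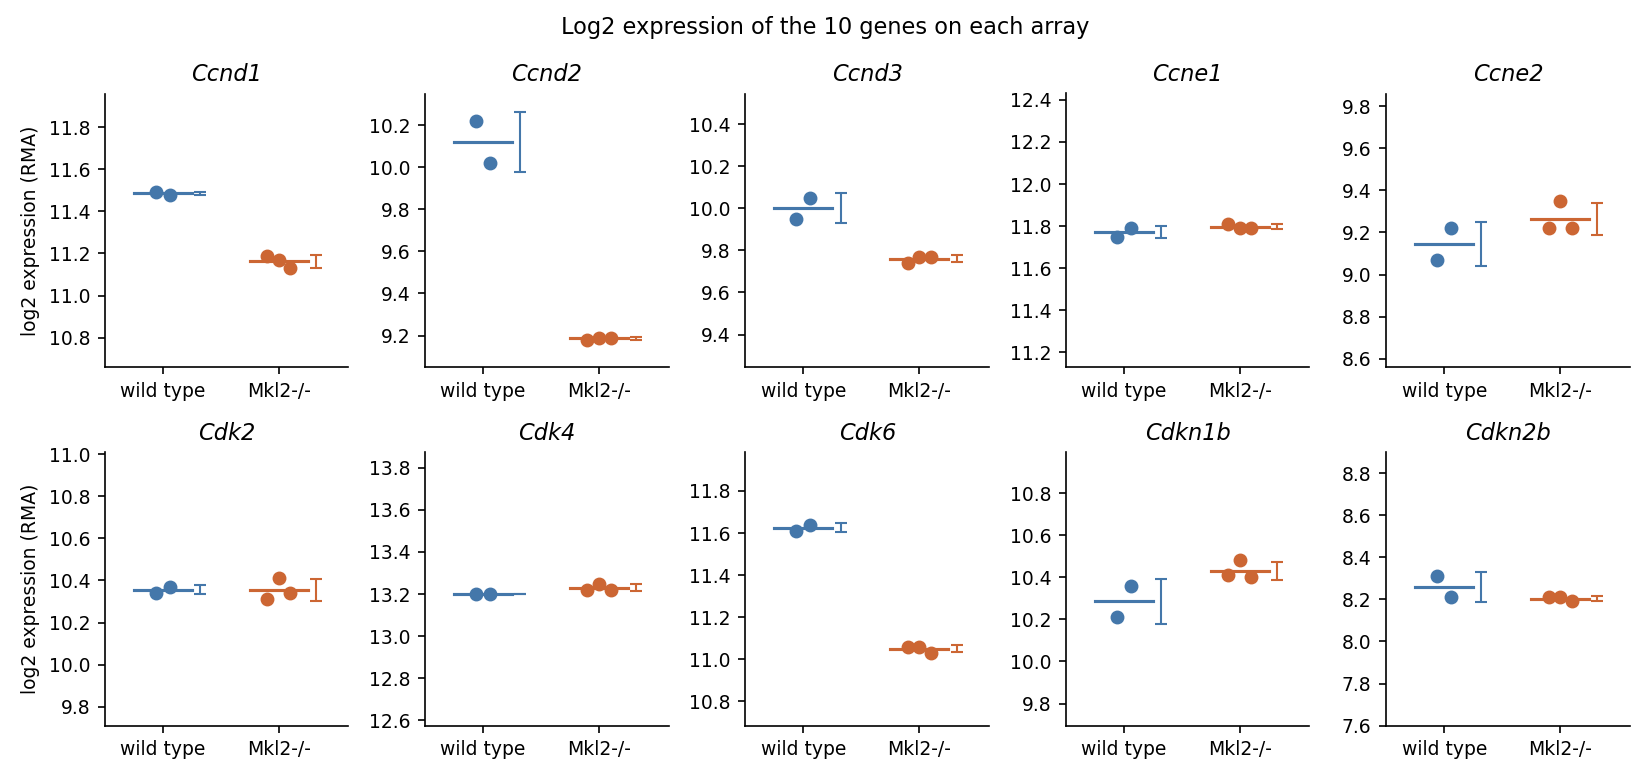
Log2 expression (y axis, RMA values) of each of the 10 genes on the 2 wild-type arrays (blue points) and the 3 Mkl2-/- arrays (orange points); horizontal lines are group means, the bars beside them 1 SD, and every panel spans the same range of log2 units. The points of Ccnd1, Ccnd2, Ccnd3 and Cdk6 separate downwards in Mkl2-/-, with Mkl2-/- means of 11.16, 9.19, 9.76 and 11.05.

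The sequences shown here are promoters of those called and uncalled partners that the RefSeq promoter table (GRCm38.p6, 250 bases before to 50 after the gene start) holds, so that the fallen Ccnd3 and Cdk6 can be set beside Cdk4, which was not called. Ccnd3 has 2 starts in the table, at chr17:47504801-47505100 and chr17:47593217-47593516, Cdk4 lies at chr10:127063285-127063584 and Cdk6 at chr5:3343643-3343942, all on the plus strand. Capitals mark matches on either strand to the TCF/LEF core (CTTTGA or CTTTGT), the E-box CACGTG, the GC box GGGCGG and the TATA motif TATAAA.
Ccnd3, upstream start: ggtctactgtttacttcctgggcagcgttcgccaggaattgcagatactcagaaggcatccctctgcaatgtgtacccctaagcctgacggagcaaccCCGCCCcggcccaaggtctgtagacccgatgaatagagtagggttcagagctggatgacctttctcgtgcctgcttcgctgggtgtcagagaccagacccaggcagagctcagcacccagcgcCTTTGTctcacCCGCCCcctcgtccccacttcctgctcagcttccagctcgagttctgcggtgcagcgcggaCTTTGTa
Ccnd3, downstream start: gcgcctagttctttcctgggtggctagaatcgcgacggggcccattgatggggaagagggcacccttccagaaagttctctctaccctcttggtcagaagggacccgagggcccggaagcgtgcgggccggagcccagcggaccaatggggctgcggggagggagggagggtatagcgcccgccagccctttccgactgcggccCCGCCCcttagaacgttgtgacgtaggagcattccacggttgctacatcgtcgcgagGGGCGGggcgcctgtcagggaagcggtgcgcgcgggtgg
Cdk4: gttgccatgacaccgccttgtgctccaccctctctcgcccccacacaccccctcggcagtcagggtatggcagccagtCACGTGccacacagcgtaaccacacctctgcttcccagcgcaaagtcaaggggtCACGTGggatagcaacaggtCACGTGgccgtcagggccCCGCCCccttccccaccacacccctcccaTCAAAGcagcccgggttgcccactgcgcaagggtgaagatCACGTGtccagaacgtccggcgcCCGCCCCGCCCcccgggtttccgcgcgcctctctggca
Cdk6: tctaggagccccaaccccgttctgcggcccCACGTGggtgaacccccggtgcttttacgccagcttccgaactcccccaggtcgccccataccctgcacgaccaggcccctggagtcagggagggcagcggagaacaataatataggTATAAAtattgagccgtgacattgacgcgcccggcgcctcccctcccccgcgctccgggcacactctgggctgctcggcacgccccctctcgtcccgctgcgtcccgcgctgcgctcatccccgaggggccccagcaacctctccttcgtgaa

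Of the 10 genes, 7 matched the promoter table, with 8 promoters in all; Ccnd1, Ccnd2 and Ccne2 were not matched. The E-box, a motif that MYC proteins are known to bind, stood 4 times in the Cdk4 promoter and 1 time in that of Cdk6, and 7.15% of all 32851 promoters held it at least once. The GC box stood in 7 of the 8 member promoters (both Ccnd3 starts counted), Cdk6 being the exception, against 35.7% of all promoters. It holds only the letters G and C, which made up 59.3% to 67.0% of the promoters printed above. The median over all promoters was 52.7%. Cdk6 alone of the members held TATAAA (13.6% of all promoters), and the TCF/LEF core stood in the upstream Ccnd3 promoter and in that of Cdk4 (31.2% of all promoters). The SRF motif known as the CArG box (1.63% of all promoters), the AP-1 motif TGANTCA (7.81%) and the SMAD motif GTCTAGAC (0.213%) had no match in the 8 promoters. The CRE motif TGACGTCA matched in Cdkn2b (1.79% of all promoters), and the E2F motif, searched as TTTCCCGC or TTTGGCGC, in Cdk2 (1.56%). All were searched on both strands. These matches describe the letters of the windows and do not show binding.

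Among the D-type cyclins, which start the phosphorylation of the retinoblastoma protein, Ccnd2 moved most. Ccnd2 (feature 10548105, chromosome 6) read 10.22 and 10.02 on the wild-type arrays and 9.18, 9.19 and 9.19 on the Mkl2-/- arrays. The Mkl2-/- arrays lay within 0.01 of each other and well below the lower wild-type array. The mean was 10.12 ± 0.14 (SD, n = 2) in wild type and 9.19 ± 0.0058 (SD, n = 3) in Mkl2-/-, and the difference was -0.93 ± 0.066 (SE; 95% interval -1.12 to -0.75; limma adjusted p = 0.0108). By absolute difference it ranked 172 of 19938 genes. With a single array left out, the Ccnd2 call held only without wild-type replicate 1 (difference -0.83, limma adjusted p = 0.0379). Its adjusted p in limma was 0.0583 without wild-type replicate 2 (difference -1.03), and 0.0645, 0.0638 and 0.064 without Mkl2-/- replicates 1, 2 and 3.

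Ccnd1, the D-type cyclin gene best known as a target of mitogen and Wnt signalling, showed a smaller shift with a tight spread. Ccnd1 (feature 10569646, chromosome 7) read 11.49 and 11.48 in wild type against 11.19, 11.17 and 11.13 in Mkl2-/-. Its groups were separated by far more than the spread within either of them. The difference was -0.32 ± 0.022 (SE; n = 2 and 3; 95% interval -0.38 to -0.26; limma adjusted p = 0.0107). Without wild-type replicates 1 and 2 and Mkl2-/- replicate 2 the limma adjusted p of Ccnd1 was 0.0563, 0.0779 and 0.0593, with differences of -0.32, -0.33 and -0.32, so the call was lost there while the value stayed.

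Ccnd3 encodes the third D-type cyclin and had the smallest of the called differences. Ccnd3 (feature 10445688, chromosome 17) read 9.95 and 10.05 in wild type against 9.74, 9.77 and 9.77 in Mkl2-/-. The wild-type arrays were the higher ones, but the lower of them lay only a little above the highest Mkl2-/- array. The difference was -0.24 ± 0.036 (SE; n = 2 and 3; 95% interval -0.34 to -0.14; limma adjusted p = 0.0384). This was the least firm of the calls: with a single array left out, the limma adjusted p of Ccnd3 stayed under the threshold only without wild-type replicate 1 (0.0428; difference -0.29). It was 0.078 without wild-type replicate 2 (difference -0.19), and 0.146, 0.133 and 0.139 without Mkl2-/- replicates 1, 2 and 3. With all 35556 features in the limma fit its adjusted p was 0.0557.

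The falls measured for the 3 D-type cyclin genes differed in size, but the arrays are too few for the test used to decide this. Per array, Ccnd2 fell by 0.61 ± 0.075 (SE) more than Ccnd1 and by 0.69 ± 0.11 more than Ccnd3, with all Mkl2-/- arrays on one side of both wild-type arrays. Both had a two-sided exact permutation p of 0.2 (Benjamini-Hochberg adjusted p = 0.267 over the 4 pairs of genes compared). The test used doubles the one-sided share, and 0.2 is the smallest p it can give with 2 against 3 arrays. Ccnd1 and Ccnd3 differed in their fall by -0.08 ± 0.053, with overlapping arrays (exact permutation p = 0.4, adjusted p = 0.4).

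The kinase partners of the D-type cyclins showed unlike values. Cdk6 (feature 10519324, chromosome 5) read 11.61 and 11.64 in wild type, and in Mkl2-/- 11.06, 11.06 and 11.03. Within each group the arrays lay within 0.03 of each other. The difference was -0.58 ± 0.018 (SE; n = 2 and 3; 95% interval -0.62 to -0.53; limma adjusted p = 0.00541), and by p-value Cdk6 ranked 25 of 19938 genes. The Cdk6 call was lost without wild-type replicate 2 (difference -0.56, limma adjusted p = 0.0583) and held without any other single array.

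Cdk4 (feature 10366814, chromosome 10), whose kinase binds the same cyclins, read 13.20 and 13.20 in wild type against 13.22, 13.25 and 13.22 in Mkl2-/-. The Mkl2-/- arrays were the higher ones, by hundredths of a log2 unit. The difference of 0.03 ± 0.015 (SE; 95% interval -0.01 to 0.07) was not called (limma adjusted p = 0.348), and that interval holds no change of the size seen in Cdk6. Per array, Cdk6 fell by 0.61 ± 0.017 (SE) more than Cdk4 changed. The exact permutation p was again 0.2, the smallest that this test can give (adjusted p = 0.267).

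**Figure D2:**
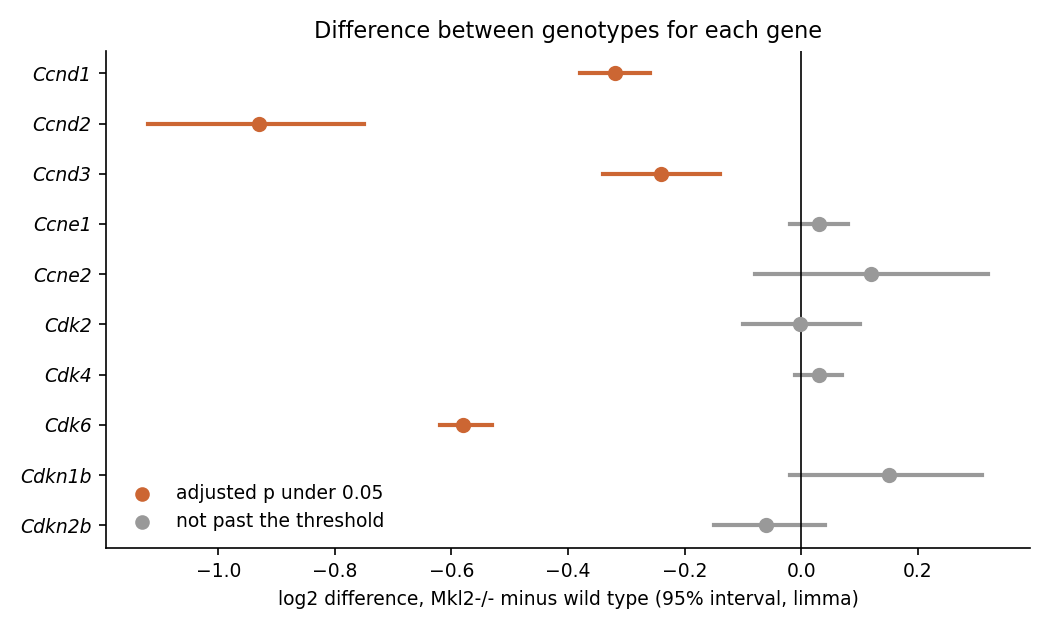
Log2 difference between Mkl2-/- and wild type (x axis) for each of the 10 genes, as a point with its 95% interval from limma; orange marks an adjusted p under 0.05 and grey the rest. The intervals of Ccnd1, Ccnd2, Ccnd3 and Cdk6 lie wholly below 0, that of Ccnd2 lowest (-1.12 to -0.75), and those of the other 6 genes span 0.

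The cyclin E and CDK2 arm, which acts after the D-type cyclins, gave no call. Ccne1 (feature 10562563, chromosome 7) read 11.75 and 11.79 in wild type against 11.81, 11.79 and 11.79 in Mkl2-/-, so its arrays touched at 11.79. Its difference was 0.03 ± 0.018 (SE; 95% interval -0.02 to 0.08; limma adjusted p = 0.404). Ccne2 (feature 10503264, chromosome 4) read 9.07 and 9.22 against 9.22, 9.35 and 9.22, with 3 of 5 arrays at the same value. Its difference was 0.12 ± 0.07 (SE; 95% interval -0.08 to 0.32; limma adjusted p = 0.393). The wider interval of Ccne2 leaves room for a rise of the size of the Ccnd3 fall.

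Cdk2 (feature 10373530, chromosome 10), which encodes the kinase partner of cyclin E, read 10.34 and 10.37 in wild type against 10.31, 10.41 and 10.34 in Mkl2-/-. The wild-type arrays lay inside the range of the Mkl2-/- arrays. Its difference was -0.0017 ± 0.036 (SE; 95% interval -0.10 to 0.10; limma adjusted p = 1), and its sign changed between ways of processing.

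Neither inhibitor gene was called. Cdkn1b (feature 10542310, chromosome 6), which encodes p27, read 10.21 and 10.36 in wild type against 10.41, 10.48 and 10.40 in Mkl2-/-. All 3 Mkl2-/- arrays were above both wild-type arrays, by as little as 0.04. The difference was 0.15 ± 0.058 (SE; 95% interval -0.02 to 0.31; limma adjusted p = 0.264). After quantile normalization it was 0.18 and passed (limma adjusted p = 0.0475). With the fibroblast marker mean as a covariate, which itself separated the genotypes, it was -0.06 (limma adjusted p = 0.782). Neither the call on Cdkn1b nor its direction was settled. A second Cdkn1b feature (10542317) had a mean of 6.58, below background, and differed by 0.05.

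Cdkn2b (feature 10514347, chromosome 4), which encodes p15, read 8.31 and 8.21 in wild type against 8.21, 8.21 and 8.19 in Mkl2-/-. Wild-type replicate 1 stood above the rest, and the other wild-type array equalled 2 of the Mkl2-/- arrays. The difference was -0.06 ± 0.035 (SE; 95% interval -0.15 to 0.04; limma adjusted p = 0.393). Of the 10 genes it lay closest to the background level.

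Fibroblasts are known to express D-type cyclins, and the stem cells were grown on them, so fibroblast markers were read beside these falls. Of 19 measured markers, 3 were called lower (Mmp2, Pdgfrb and Sparc), 1 higher (Twist1) and 15 neither. Over all genes 6.28% were called lower and 2.99% higher. The median difference of the markers was -0.06. Their summed intensity on the linear scale was 19116 and 19807 in wild type and 16140 to 16939 in Mkl2-/-, so it moved with the genotype. Vim and Sparc alone made up 68.7% to 73.4% of that sum; without them it was 5452 and 5274 in wild type and 4894 to 5065 in Mkl2-/-. The mean log2 value of the markers was 8.39 and 8.37 against 8.28 to 8.32. Of the 19, 12 differed by less than 0.1, as did 12721 of all 19938 genes. Of these markers, Lum, Postn and Fap were below background on all arrays. The mean marker value was lower on every Mkl2-/- array than on both wild-type arrays. As a covariate it therefore overlaps with the genotype, and the fit cannot part them. With that covariate the differences were -0.83 (Ccnd2), -0.62 (Cdk6), -0.34 (Ccnd1) and -0.31 (Ccnd3). None of the 4 was called in that fit (limma adjusted p = 0.3, 0.214, 0.268 and 0.359), in which 0 of 19938 genes were called and 2787 had an unadjusted p under 0.05. Of 12 stem cell markers, 4 were called higher and 2 lower, against 2.99% and 6.28% of all genes. The higher ones were Dppa4 (0.74), Fgf4 (0.67), Dppa5a (0.49) and Utf1 (0.39), and the lower ones Nanog (-1.14) and Klf4 (-0.69).

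The 4 lowered genes lie on 4 chromosomes, and the medians of their neighbours lay near 0. Over the nearest 10 expressed genes on each side, or fewer near a chromosome end, the median difference was 0.03 around Ccnd2, 0.02 around Ccnd3, 0.06 around Ccnd1 (12 genes) and -0.03 around Cdk6 (10 genes). The neighbours were all above background, where 17.4% of genes were called in a fit of their own. Of the 62 neighbours in all, 1 was called lower and 3 higher, against 6.28% and 2.99% of all genes. The lower one was Tead4 (-0.23), a neighbour of Ccnd2, and 1 of the higher ones Tomm6 (0.14), a neighbour of Ccnd3. Around Ccnd1, Fgf4 (0.67) and Fgf15 (0.58) were called higher, so that this fibroblast growth factor pair and Ccnd1 moved in opposite directions. Fgf4 is also 1 of the stem cell markers above.

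**Figure D3:**
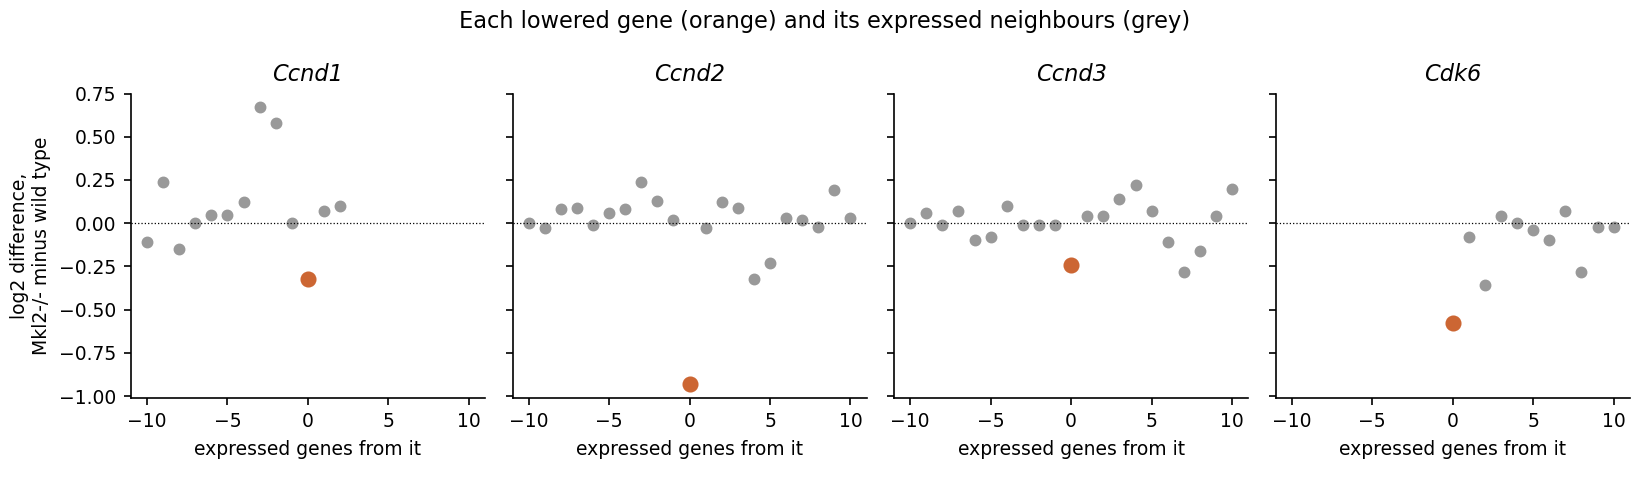
Log2 difference between Mkl2-/- and wild type (y axis) of each lowered gene (orange, at 0) and of its expressed neighbours (grey), placed by their order along the chromosome (x axis, genes away). The neighbours' medians are 0.06, 0.03, 0.02 and -0.03 for Ccnd1, Ccnd2, Ccnd3 and Cdk6. In the same order the neighbours range from -0.15 to 0.67, -0.32 to 0.24, -0.28 to 0.22 and -0.36 to 0.07. The lowest neighbour of Ccnd3 lies below Ccnd3 itself (-0.24).

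Genes that act on or after the G1 regulators were read from 7 lists, with 80 of 85 genes measured. Over these lists 6 genes were called lower and 2 higher, against 6.28% and 2.99% of all genes, and the median difference was 0.02. Only 1 of the 80 genes had a mean below background, and in the fit of genes above background 17.4% were called. Without wild-type replicate 2 none of the 8 was called. After quantile normalization 13 were called higher, so the number of rises depended on the scaling.

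The upstream list comes first. Of 13 measured genes listed as upstream of the D-type cyclins, 4 fell, 1 rose and 8 were not called, with a median difference of -0.15. Over all genes 6.28% were called lower and 2.99% higher. The list was also chosen with earlier results known. A place on it does not show that a gene induces these cyclins. The upstream genes gave 5 of the 8 calls over the 7 lists, a share that was 6 of 20 after quantile normalization and 6 of 14 after cyclic loess. At an unadjusted p under 0.05 in limma, 4 were lower and 2 higher. Without moderation of the variances 1 was called lower and 0 higher. Without Mkl2-/- replicates 1, 2 and 3 the falls numbered 1, 1 and 2 and the rises 1, 0 and 1. The AP-1 genes Fosb (-1.07 ± 0.055 SE; limma adjusted p = 0.00787) and Fos (-1.01 ± 0.071; limma adjusted p = 0.0108) fell. Of the TCF/LEF factors, which carry Wnt signals to DNA, Lef1 rose (0.73 ± 0.066; limma adjusted p = 0.0152), while Tcf7l1 (-0.72) and Tcf7l2 (-0.60) fell. Tcf7l1, Tcf7l2 and all list genes named here without a call were chosen after their values were seen. Ctnnb1, which encodes beta-catenin, differed by -0.07 and Jun by -0.25, neither called. Myc and Mycn each differed by 0.22 without a call.

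Fos and Fosb separated the genotypes on every array. Fos read 10.27 and 10.24 in wild type against 9.22, 9.15 and 9.36 in Mkl2-/-. Fosb read 11.45 and 11.35 against 10.27, 10.32 and 10.40. Both are known targets of SRF with ternary complex factors.

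Downstream of the D-type cyclins the calls were single genes, against 9.27% of all genes called and 17.4% in the fit of genes above background. Of 13 pocket protein and E2F/DP genes 1 rose, E2f7 (0.14 ± 0.012; limma adjusted p = 0.0133), which encodes a repressor of the E2F family, and none fell; at an unadjusted p under 0.05 these were 5 and 0, and after quantile normalization 5 were called higher. Rb1, which encodes the retinoblastoma protein, read 9.37 and 9.57 in wild type against 9.88, 10.16 and 9.92 in Mkl2-/-. All Mkl2-/- arrays were above both wild-type arrays, but the spread was wide and the difference of 0.52 ± 0.12 (SE; 95% interval 0.18 to 0.85) was not called (limma adjusted p = 0.0922). Of 15 S-phase genes known as E2F targets, 1 fell, Cdc6 (-0.32 ± 0.019; limma adjusted p = 0.00857), which encodes a loader of the replicative helicase, and Pcna differed by -0.01. At an unadjusted p under 0.05, 3 of these S-phase genes were higher and 2 lower, and after quantile normalization 3 were called higher and 1 lower. The call on Cdc6 was lost without wild-type replicate 2 or Mkl2-/- replicate 1 or 2, and of the 5 fits with 1 array left out, that on E2f7 held only in the fit without Mkl2-/- replicate 3. Of 15 later cyclins and mitotic genes none was called in either direction by limma (2 higher and 1 lower at an unadjusted p under 0.05). The cyclin A gene Ccna2 read 12.55 on all 5 arrays. Such equal readings were not rare: 766 of 19938 genes had the same value on all arrays.

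Genes that switch the kinases on or off by other routes are read against the same shares of 9.27% and 17.4%. None of 8 genes acting on CDK activation and none of 5 other inhibitor genes was called by limma. At an unadjusted p under 0.05, 1 and 0 passed. The 1 was Wee1 (-0.11), whose kinase inhibits CDKs. The 5 inhibitor genes differed by between -0.05 and 0.14, and Cdkn2c among them was below background on all 5 arrays. Cdkn1a was listed but not among the measured genes. Cdkn2a, which shares a locus with Cdkn2b, read 8.34 on all 5 arrays. Of 11 genes listed under degradation of G1 cyclins and p27, 1 fell, the cullin gene Cul3 (-0.28 ± 0.035, limma adjusted p = 0.0287). At an unadjusted p under 0.05, 1 of the list was higher and 2 lower. A place on the list does not show that a gene degrades them. With any single array left out, and without moderation of the variances, no gene of this list was called lower. Skp2, whose protein marks p27 for degradation, differed by 0.03 and its cofactor gene Cks1b by 0.25, neither called.

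**Figure D4:**
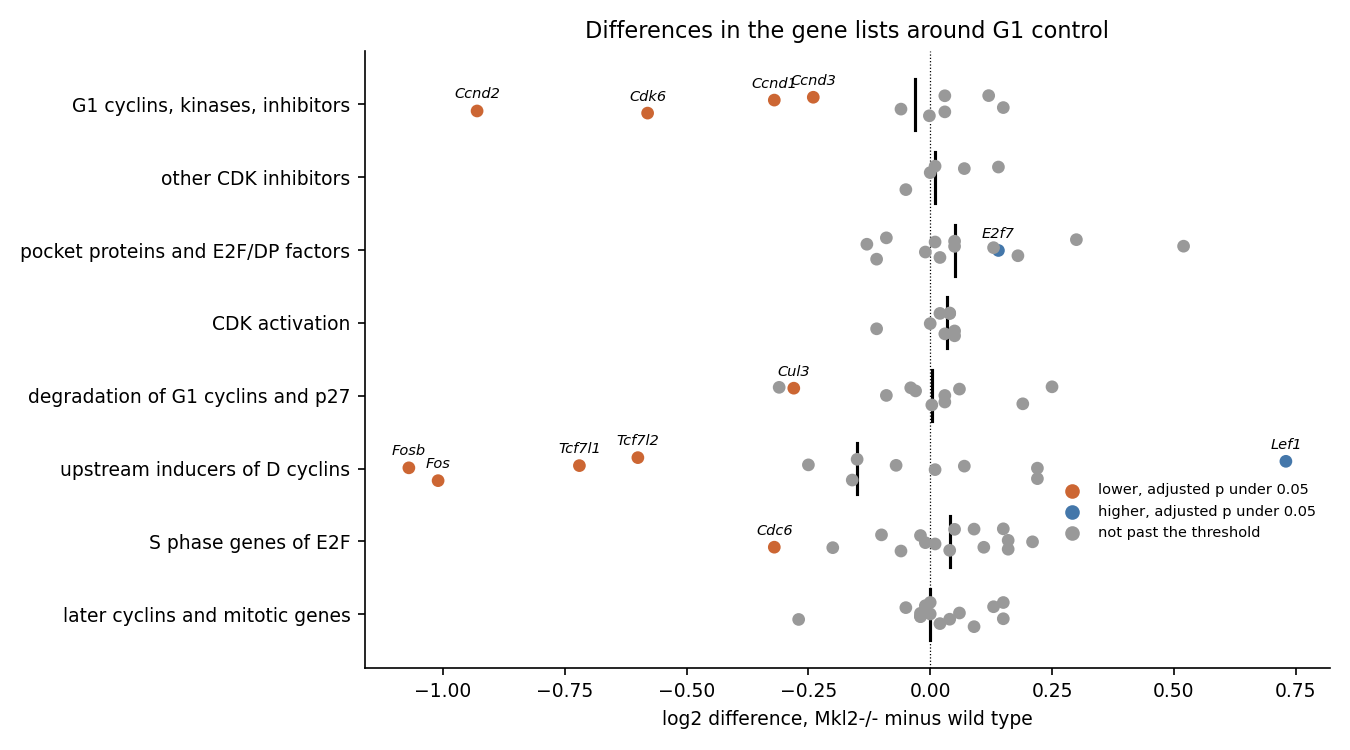
Log2 difference between Mkl2-/- and wild type (x axis) of each measured gene in the 10-gene set and in 7 lists around it (rows; vertical ticks are list medians); orange is lower and blue higher at an adjusted p under 0.05, grey not called, and called genes are named. Of the called falls, 4 stand in the top row and 4 in the list labelled upstream inducers of D cyclins. The median of that list is -0.15, against 0.00 for the later cyclins and mitotic genes.

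The sizes of the 4 falls moved little between ways of processing, and their calls moved more. Over 14 alternatives, Ccnd2 ranged from -1.03 to -0.83, Cdk6 from -0.62 to -0.56, Ccnd1 from -0.34 to -0.30 and Ccnd3 from -0.31 to -0.19. Cdk6 was called in 11 of the 14, Ccnd1 in 8, Ccnd2 in 7 and Ccnd3 in 6. None of the 4 was called without wild-type replicate 2, where 0 of 19938 genes were called by limma and 4411 had an unadjusted p under 0.05.

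**Figure D5:**
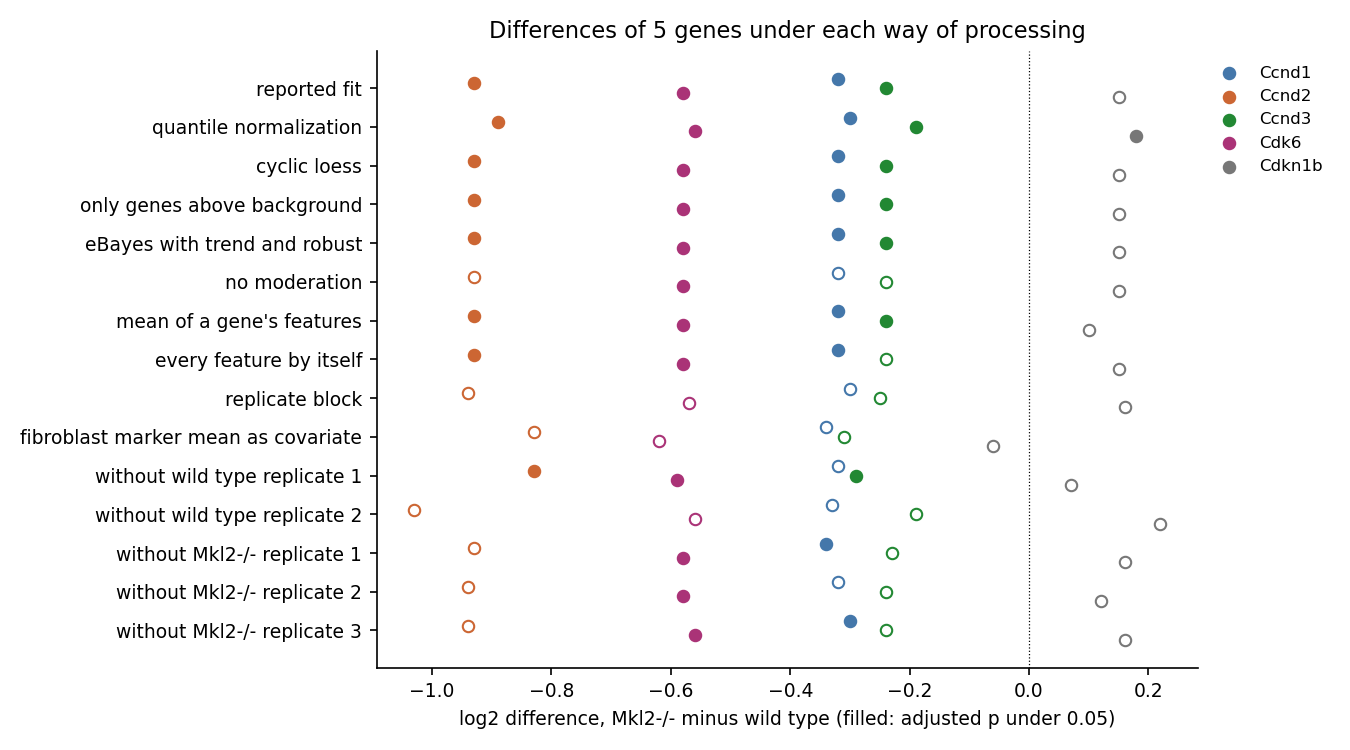
Log2 difference between Mkl2-/- and wild type (x axis) of Ccnd1, Ccnd2, Ccnd3, Cdk6 and Cdkn1b (colours) in the reported fit and 14 alternatives (rows); filled circles have a limma adjusted p under 0.05 and open ones do not. The 4 lowered genes stay on the same side of 0 in every row, while Cdkn1b crosses to -0.06 with the fibroblast covariate.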

How the data were processed

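The authors measured total RNA on Affymetrix whole-transcript arrays, 1 per culture (2 wild type, 3 Mkl2-/-). The deposited values are log2 intensities from RMA (background correction, quantile normalization, probe summary), made with Affymetrix Expression Console 1.1 as the submitters' processing notes state; RMA compresses differences of dim features. Of 35556 features, a platform annotation gave 1 symbol to 21789, several to 1621 and none to 12146, and 0 columns were left unused. Names, chromosomes and gene order came from RefSeq (GRCm38.p6), which 21698 of the features with 1 symbol matched. The sources used here name no scan dates and no build of the array annotation.

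The genotypes were compared in limma 3.58.1 (lmFit, then eBayes; R 4.3.3) across 19938 genes (3 residual and 0.885 prior degrees of freedom). On all 5 arrays, 766 genes had 1 and the same value, none of them a member. The fit was tested on simulated data. Members and lists were chosen with earlier results of these data known. The text names the 10 members, Mkl2 and, of each list, the called genes with the 3 smallest p-values; other genes were named after their values were seen. Differences between members were tested by exact permutation over arrays (scipy 1.17.1, two-sided). Figures were drawn with matplotlib 3.10.9. Alternatives were quantile and cyclic loess normalization, a filter on dim genes, other variance models, other uses of a gene's features, the replicate number as a block, a fibroblast covariate and each array left out.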

Additional observations from a re-analysis of the deposited data

How the results depend on the processing

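The directions of Ccnd1, Ccnd2, Ccnd3 and Cdk6 held under all 14 alternatives, while the counts of calls did not. Over all genes, 1848 calls became 3234 after quantile normalization, 2982 after cyclic loess and 298 without moderation of the variances. The number of the 10 genes called lower, 4, fell to 1 without moderation (Cdk6); 1 was called higher after quantile normalization (Cdkn1b). In the 7 lists, 6 lower and 2 higher calls became 2 and 1 without moderation, and the higher ones 13 after quantile normalization and 7 after cyclic loess. With the replicate number as a block, and likewise with the fibroblast covariate, 0 genes were called, also in the 10-gene set and the lists. At an unadjusted p under 0.05 in limma there were 3827 and 2787 genes. Both fits have fewer residual degrees of freedom, and the fibroblast covariate itself separated the genotypes. Genotypes share only a number: same-numbered arrays had correlated deviations of -0.26 (replicates 1) and 0.18 (replicates 2), and the block leaves Mkl2-/- replicate 3 without weight. Leaving out 1 array, which for wild type assumes that the lone array varies like the others, gave 0 to 963 calls over all genes, 0 to 3 lower and 0 higher among the 10 genes, and in the lists 0 to 3 lower and 0 to 2 higher. Signs changed only in uncalled genes: Cdk2 was 0.03 after quantile normalization, 0.0004 after cyclic loess, 0.005 with the block and -0.03 to 0.02 with 1 array left out, and the fibroblast covariate gave -0.18 for Ccne2, -0.02 for Cdk4 and -0.06 for Cdkn1b. For the other changes the cause was not tested. With 5 arrays, changes as small as those of Ccne1 or Cdkn2b cannot be told from the spread between cultures.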
